A study of Homo sapiens with 9 samples.

Results

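The enzymes that make serine and move its carbon into the folate pool were examined as 9 named genes, in RNA sequencing of the HEK293 cell line, which derives from human embryonic kidney. The 9 genes were PHGDH, PSAT1, PSPH, SHMT1, SHMT2, MTHFD2, MTHFD1L, ALDH1L2 and MTHFD1, out of 35876 gene symbols in the deposited table. All 9 were in the table and all 9 passed the filter on low counts, which left 11905 genes for testing. They were chosen by name with measured values of these libraries in view, among them the fold change of PSAT1, lower in the cells with Cre than in those with Flpo. Every difference between groups given for these 9 genes is therefore a description, and nothing is supported with it.

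The series belongs to work on a chemically controlled, reversible knockout system. All cells carried Cas9, an RNA-guided DNA nuclease, and 3 genotypes were sequenced with 3 replicates each. CC_Cas9 had Cas9 alone (the Cas9 group), CC_Cas9_Cre had also the recombinase Cre (the Cre group), and CC_Cas9_Flpo had the recombinase Flpo (the Flpo group). The prefix CC is not explained in the labels, which name no target gene, no treatment and no time, and do not say whether replicates came from separate cultures or clones. P-values then measure only the spread between these libraries, which may be technical. In such bulk RNA, fewer cells of a type and less RNA per cell cannot be told apart.

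Serine is made from a glycolytic intermediate by PHGDH, PSAT1 and PSPH acting in turn. The hydroxymethyltransferases SHMT1 in the cytosol and SHMT2 in mitochondria convert serine to glycine and load a carbon unit onto tetrahydrofolate. In mitochondria MTHFD2 oxidises that unit, and MTHFD1L releases it as formate while ALDH1L2 oxidises it to CO2. In the cytosol MTHFD1 takes up formate for the synthesis of purines and thymidylate. Several of these genes are known targets of ATF4, the transcription factor of the integrated stress response.

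Depth differed between the groups. The total estimated count ran from 993902 to 3761779 in the Cas9 libraries, from 213907 to 1701730 in the Cre libraries and from 4989524 to 8833491 in the Flpo libraries. The Flpo totals lay above all Cas9 and all Cre totals, so depth and genotype cannot be told apart in either comparison with Flpo. Of 8 genes known from HEK293, 6 reached 10 counts in a library, while PAX2 and NEFM did not. Their summed level was 478 to 1432 CPM (estimated counts scaled to a common library size) in the Cas9 and Cre libraries and 1617 to 5449 CPM in the Flpo libraries. In the Flpo libraries it came mostly from the keratins KRT8 and KRT18. VIM, at 173 to 892 CPM in the Cas9 and Cre libraries and 263 to 510 CPM in Flpo, was the highest of the 8 in Cas9 and Cre replicates 2 and 3. Of 8 hepatocyte genes, examined because the extraction protocol speaks of livers, FGB was at 0 and ALB, APOA2, SERPINA1 and TTR stayed under 10 counts in every library. The other 3 reached 10 counts in a library, with TF at 8.32 to 102 CPM and HP at 1.46 to 40.8 CPM, and the summed level of the 8 was 28.5 to 95.7 CPM in Cas9, 61.2 to 131 CPM in Cre and 10.6 to 133 CPM in Flpo. Of 4 leukocyte genes, CD3E was at 0 and PTPRC under 10 counts in every library, while CD74 and LYZ reached 10 counts and LYZ was at 32.2 to 249.4 CPM. Their summed level was 74.3 to 252 CPM in Cas9, 125 to 246 CPM in Cre and 32.9 to 167 CPM in Flpo, and the part of these genes in the results was not tested. Of 4 fibroblast genes all reached 10 counts in a library, and their summed level stood apart in Cre replicate 2. It was 6467 CPM there, against 547 and 1379 CPM in the other Cre libraries and 248 to 888 CPM in the Cas9 and Flpo libraries. Cre replicate 2, with the smallest total, is left out in turn beside the results that rest on it.

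A sequence comparison shows what the counts of PSAT1 rest on, since processed pseudogenes can take reads from their parent gene. PSAT1 (chromosome 9, 78297143 to 78330093, plus strand) has 4 pseudogenes in the table, and PSAT1P3 is shown because it holds most of the shared words. The longest stretch that PSAT1P3 (chromosome 1, 79054945 to 79056055) shares exactly with the PSAT1 coding sequence is 67 bases, coding bases 763 to 829. It is shown with 20 bases on either side, coding bases 743 to 849, from GENCODE release 29 transcripts, 5′ to 3′, with the 4 differing bases in capitals.
PSAT1: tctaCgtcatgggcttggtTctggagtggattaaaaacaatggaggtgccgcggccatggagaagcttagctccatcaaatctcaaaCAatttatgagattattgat
PSAT1P3: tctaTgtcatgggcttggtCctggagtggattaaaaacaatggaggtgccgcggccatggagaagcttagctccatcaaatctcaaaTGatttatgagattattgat
Of the words of 31 bases in PSAT1 transcripts, 9.96% were also in PSAT1P3, 4.71% in PSAT1P4, 1.87% in PSAT1P1 and 0.0914% in PSAT1P2. Together the 4 pseudogenes held 15.4% of its words, and no other gene held any.

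The counts went to the parent. PSAT1 had 1278 counts over the 9 libraries and its 4 pseudogenes had 1 together, a single count of PSAT1P3 in Flpo replicate 1. The PSAT1 count was a whole number in 9 of 9 libraries, as it is when no read is divided among genes. With the pseudogene count added, the difference between Cre and Flpo stayed at −3.32 on the log2 scale. Across all 9 enzymes the table held 14 such pseudogenes, and 8 of them had no count in any library.

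MTHFD2 and MTHFD1 were the other members with a pseudogene above 5 counts in a library. MTHFD2P1, a transcribed pseudogene (chromosome 3, 95654423 to 95683193), had 6.62 to 16.0 CPM in the Cre libraries, 2.57 to 12.9 CPM in the Cas9 libraries and 1.07 to 4.11 CPM in the Flpo libraries. It was thus high where MTHFD2 itself was low between Cre and Flpo. These groups did not overlap, as for 15.3% of all tested genes with Cre higher. The 6.62 CPM of Cre replicate 2 rests on 1.77 counts, so its distance from the Flpo libraries is uncertain. Only 0.219% of MTHFD2's words of 31 bases occur in it. MTHFD1P1 (chromosome X, 57392646 to 57395409) had 17, 6 and 45 counts in Flpo replicates 1, 2 and 3 and at most 2 in any other library. It holds 5.50% of MTHFD1's words.

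**Figure D1:**
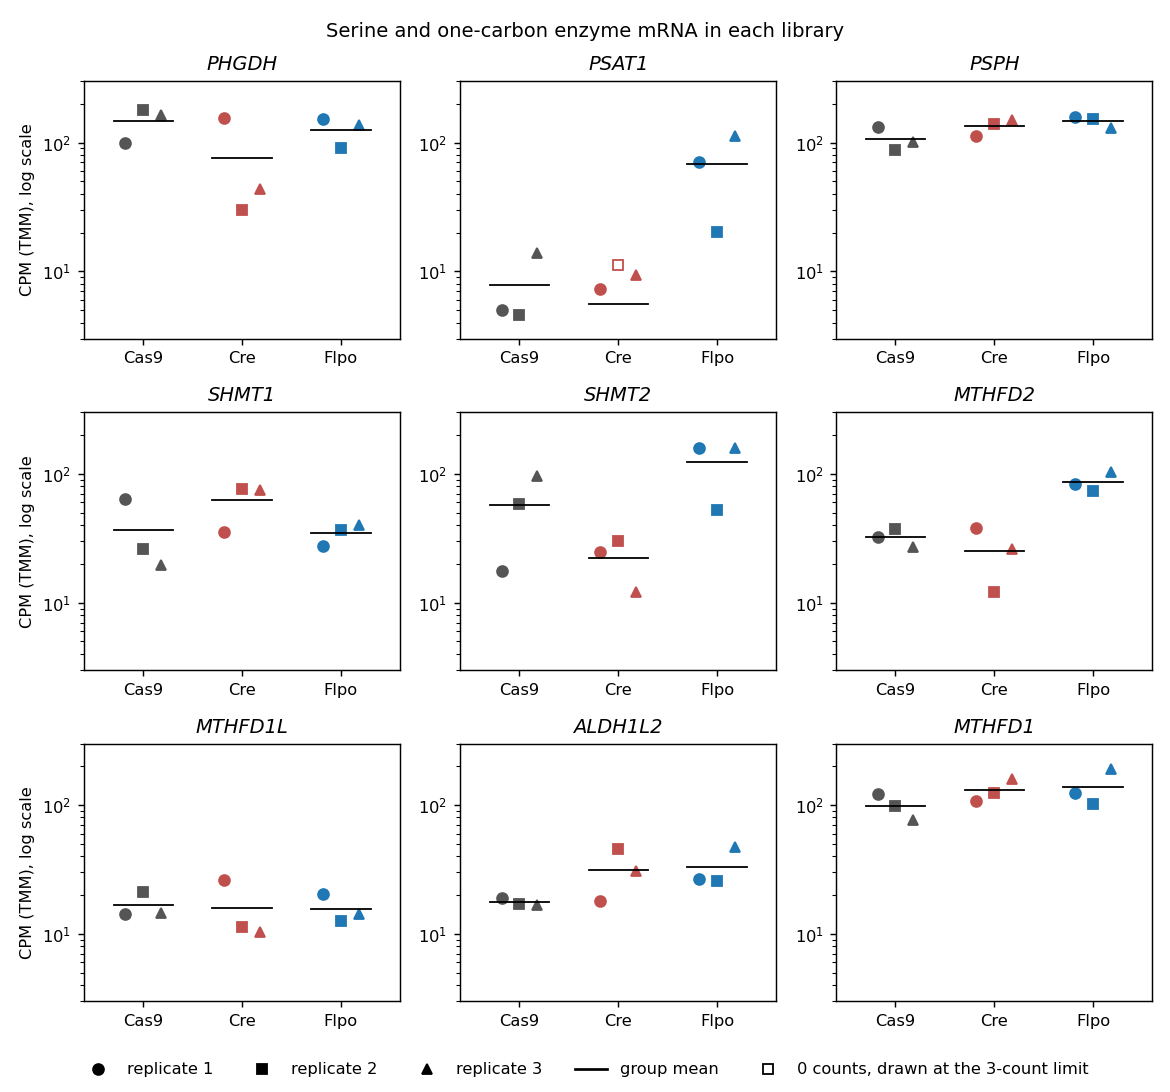
Level of each of the 9 enzymes in each library, in CPM with TMM scaling on a log axis, by group; circles, squares and triangles are replicates 1, 2 and 3 and the line is the group mean of 3. PSAT1, at 20.2 to 111 CPM in the Flpo libraries and at most 14.0 CPM in the others, has the largest fold change between Cre and Flpo, and its open square marks the Cre library with 0 counts, drawn at its limit of 11.2 CPM.

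Levels below are CPM after scaling by trimmed mean of M-values (TMM), which corrects library totals for composition. Differences are log2 fold changes from edgeR with a standard error (SE), some followed by the same value after subtracting the all-gene median (11905 genes), since scaling moved that median. It was −0.34 in Cre against Flpo with TMM and 0.44 without, 0.05 and −0.48 in Flpo against Cas9, and −0.22 and 0.03 in Cre against Cas9.

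Among the enzymes that make serine, PSAT1 differed most between groups. PSAT1, the aminotransferase of the second step, was at 71.1, 20.2 and 111 CPM in Flpo replicates 1, 2 and 3. It was at 4.99, 4.59 and 14.0 CPM in the Cas9 replicates, and at 7.31 and 9.44 CPM in Cre replicates 1 and 3. Cre replicate 2 had 0 counts, which allows up to 11.2 CPM. All Flpo libraries lay above all others, although Flpo replicate 2 lay nearer to Cas9 replicate 3 than to the other Flpo libraries. PSAT1 differed by −3.32 (SE 0.83, n = 3 against 3) between Cre and Flpo, or −2.98 relative to the median. Between Flpo and Cas9 it differed by 3.05 (SE 0.78), or 3.00 relative to the median, and by 1.02 (SE 1.04) with library totals as covariate. Between Cre and Cas9 it differed by −0.27 (SE 0.81), or −0.06.

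PHGDH (chromosome 1, 119648411 to 119744226, plus strand), the dehydrogenase that opens the branch, did not share that pattern. Cas9 replicates 1, 2 and 3 were at 98.5, 179 and 164 CPM, and the Flpo replicates at 152, 90.6 and 136 CPM. In the Cre replicates it was at 156, 29.9 and 43.7 CPM, so that Cre replicate 1 stood with the other groups and Cre replicates 2 and 3 below all of them. The 29.9 CPM of Cre replicate 2 rests on 8 counts. The difference between Cre and Flpo was −0.68 (SE 0.60), or −0.34 relative to the median. It was −1.75 (SE 0.59) without Cre replicate 1, −0.31 (SE 0.60) without Cre replicate 2 and −0.37 (SE 0.70) without Cre replicate 3. Without TMM it was 0.10 (SE 0.58), of the opposite sign.

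PSPH (chromosome 7, 56011051 to 56051604, minus strand), the phosphatase of the last step, varied least of the serine branch. The Cas9 libraries were at 133, 87.0 and 101 CPM, the Cre libraries at 113, 139 and 150 CPM and the Flpo libraries at 159, 152 and 129 CPM. The 3 groups overlapped. Its differences were −0.14 (SE 0.43) for Cre against Flpo, 0.46 (SE 0.43) for Flpo against Cas9 and 0.32 (SE 0.43) for Cre against Cas9, and the first and second changed sign without TMM. Of its words of 31 bases 16.9% occur in other genes, and its count was whole in 0 of 9 libraries, so that part of its reads was divided.

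The hydroxymethyltransferases had fold changes of opposite sign between Cre and Flpo, except with library totals as covariate, where SHMT1 was at −0.81 and SHMT2 at −1.21. SHMT2 (chromosome 12, 57229327 to 57234935, plus strand), the mitochondrial form, was at 159, 52.4 and 159 CPM in the Flpo replicates and at 24.8, 29.9 and 12.0 CPM in the Cre replicates. These groups did not overlap. The Cas9 replicates, at 17.5, 58.0 and 95.4 CPM, spanned the distance between them. SHMT2 differed by −2.53 (SE 0.69) between Cre and Flpo, or −2.19 relative to the median, by 1.11 (SE 0.64) between Flpo and Cas9, and by −1.42 (SE 0.68) between Cre and Cas9. No word of 31 bases in SHMT2 transcripts occurs in transcripts of another gene. Words were compared in transcript direction only, so an overlap on the opposite strand would not show. Exons of NDUFA4L2 and AC137834.2 overlap SHMT2 in the annotation.

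SHMT1 (chromosome 17, 18327860 to 18363563, minus strand), the cytosolic form, was at 35.5, 76.6 and 75.4 CPM in the Cre replicates. It was at 63.7, 26.2 and 19.4 CPM in the Cas9 replicates and at 27.7, 36.7 and 39.9 CPM in the Flpo replicates. Cre replicate 1 lay within the range of the Flpo libraries, so the groups overlapped. The difference between Cre and Flpo was 0.84 (SE 0.56), or 1.18 relative to the median, with a sign opposite to that of SHMT2.

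Of the mitochondrial folate enzymes, MTHFD2 separated the Flpo group. MTHFD2 (chromosome 2, 74198562 to 74217565, plus strand), the dehydrogenase and cyclohydrolase, was at 83.6, 73.3 and 103 CPM in the Flpo replicates. It was at 32.0, 37.5 and 26.9 CPM in the Cas9 replicates and at 38.1, 12.1 and 25.9 CPM in the Cre replicates, with 3.24 counts in Cre replicate 2. Its lowest Flpo library lay above every library of the other groups, and the Flpo spread was small. MTHFD2 differed by −1.70 (SE 0.50) between Cre and Flpo, or −1.37 relative to the median, by 1.43 (SE 0.49) between Flpo and Cas9, or 1.38, and by −0.28 (SE 0.50) between Cre and Cas9. With the counts of its 7 pseudogenes added, the difference between Cre and Flpo was −1.22 (SE 0.48), with an edgeR adjusted p of 0.0792 against 0.0335 without them. Of the added counts 108.8 were of MTHFD2P1, which holds 0.219% of its words, and 6 of MTHFD2P6. MTHFD2P7, with 4.55% of its words, added 1 count, so this fit does not measure shared reads. Without TMM the difference was −0.93 (SE 0.52, edgeR adjusted p = 0.184).

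MTHFD1L (chromosome 6, 150865549 to 151101887, plus strand), the formate-releasing enzyme, showed no such separation. The Cas9 libraries were at 14.2, 21.2 and 14.6 CPM, the Cre libraries at 26.4, 11.2 and 10.3 CPM and the Flpo libraries at 20.4, 12.5 and 14.2 CPM. The groups overlapped, with Cre replicate 1 the highest library. Its differences were 0.09 (SE 0.57), −0.08 (SE 0.55) and 0.01 (SE 0.57) for Cre against Flpo, Flpo against Cas9 and Cre against Cas9. The standard errors leave room for changes in either direction.

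ALDH1L2 (chromosome 12, 105019784 to 105084577, minus strand), which burns the carbon unit to CO2, was lowest in the Cas9 group. It was at 18.9, 17.2 and 16.6 CPM there, against 26.6, 25.6 and 47.4 CPM in the Flpo replicates, with no overlap. In the Cre replicates it was at 18.1, 45.5 and 30.8 CPM, and replicate 1 lay among the Cas9 libraries. It differed by 0.92 (SE 0.52) between Flpo and Cas9, 0.77 (SE 0.54) between Cre and Cas9 and −0.15 (SE 0.53) between Cre and Flpo.

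MTHFD1 (chromosome 14, 64388031 to 64463457, plus strand), the cytosolic folate enzyme, was at 121, 98.3 and 77.1 CPM in the Cas9 replicates. The Cre libraries were at 108, 124 and 159 CPM and the Flpo libraries at 123, 102 and 189 CPM. The groups overlapped, and its differences were −0.09 (SE 0.45), 0.48 (SE 0.45) and 0.40 (SE 0.46) in the same order of comparisons as for MTHFD1L. Exons of ZBTB25 overlap it in the annotation. Likewise exons of SLC4A5 overlap MTHFD2, those of SMCR8 overlap SHMT1 and those of C12orf45 overlap ALDH1L2. The use of strand in counting is not given in the sources used here, and the part of these overlaps in the counts was not tested.

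**Figure D2:**
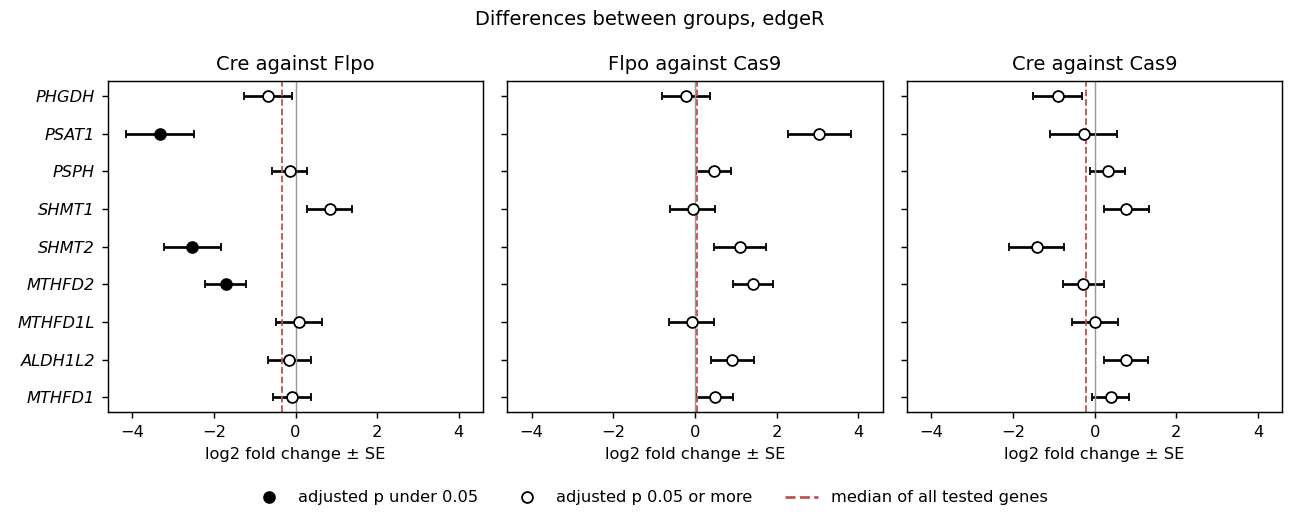
Log2 fold change with its standard error (bars) of each enzyme in the 3 comparisons, 3 libraries against 3, from edgeR; filled points have an adjusted p under 0.05 over all genes and the dashed line is the median of all tested genes. PSAT1, SHMT2 and MTHFD2 are the filled points, at −3.32, −2.53 and −1.70 in Cre against Flpo.

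As counts, 3 of 9 enzymes were past an adjusted p of 0.05 in edgeR between Cre and Flpo, all lower in Cre: PSAT1, SHMT2 and MTHFD2. Of all tested genes 20.5% were past it, with 14.3% lower and 6.17% higher in Cre, so the members' count is not read as a result about them. The all-gene split was 735 higher and 1705 lower with TMM and 2039 higher and 840 lower without, where 1 enzyme, PSAT1, was past the threshold. The same 3 enzymes were those whose Cre and Flpo libraries did not overlap, a pattern found for 28% of all genes in that direction and for 43.3% in either. The median difference of the 9 enzymes was −0.15, against −0.34 for all tested genes. Without Cre replicate 2, Cre replicate 3, Flpo replicate 1 or Flpo replicate 3, 0 of the 9 were past the threshold. Of all genes 0, 0, 0 and 405 were past it in these fits. In each of them 3 of the 9 had an unadjusted edgeR p under 0.05. So had 4721 of 13691, 3359 of 13796, 3233 of 12431 and 3280 of 12352 genes, and this number too is not read as a result. Without Cre replicate 1, 4 of the 9 were past the threshold, with PHGDH added, beside 22.7% of all genes. Without Cas9 replicate 2 only PSAT1 was, beside 10% of all genes. The fitted difference of PSAT1 ran from −3.71 to −2.78 over the 9 fits that each left out a library, that of SHMT2 from −2.90 to −2.21 and that of MTHFD2 from −2.12 to −1.41.

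Between Flpo and Cas9, 0 of 9 enzymes were past the threshold in edgeR, beside 0.227% of all genes (0.218% higher and 0.0084% lower in Flpo). PSAT1 and MTHFD2, 2 of 9, had an unadjusted edgeR p under 0.05, beside 2378 of 11905 genes. DESeq2 placed both, 2 of 9, past its threshold, beside 8.95% of all genes. Without Flpo replicate 2, edgeR placed the same 2 past it, beside 2685 of 12595 genes, or 21.3%. The libraries did not overlap for PSAT1, MTHFD2 and ALDH1L2, all higher in Flpo, as for 12.9% of all genes, or 25% in either direction. The median difference of the 9 was 0.48, against 0.05 for all genes.

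Between Cre and Cas9, 0 of 9 enzymes were past the threshold in edgeR, beside 0% of all genes, and DESeq2 also gave 0 of 9. Of the 9, 0 had an unadjusted edgeR p under 0.05, beside 879 of 11905 genes. All 9 enzymes overlapped between these groups, where 9.84% of all genes did not (3.46% higher and 6.38% lower in Cre). The median difference of the 9 was 0.01, against −0.22 for all genes. The comparisons share libraries, since each group stands in a pair of them.

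**Figure D3:**
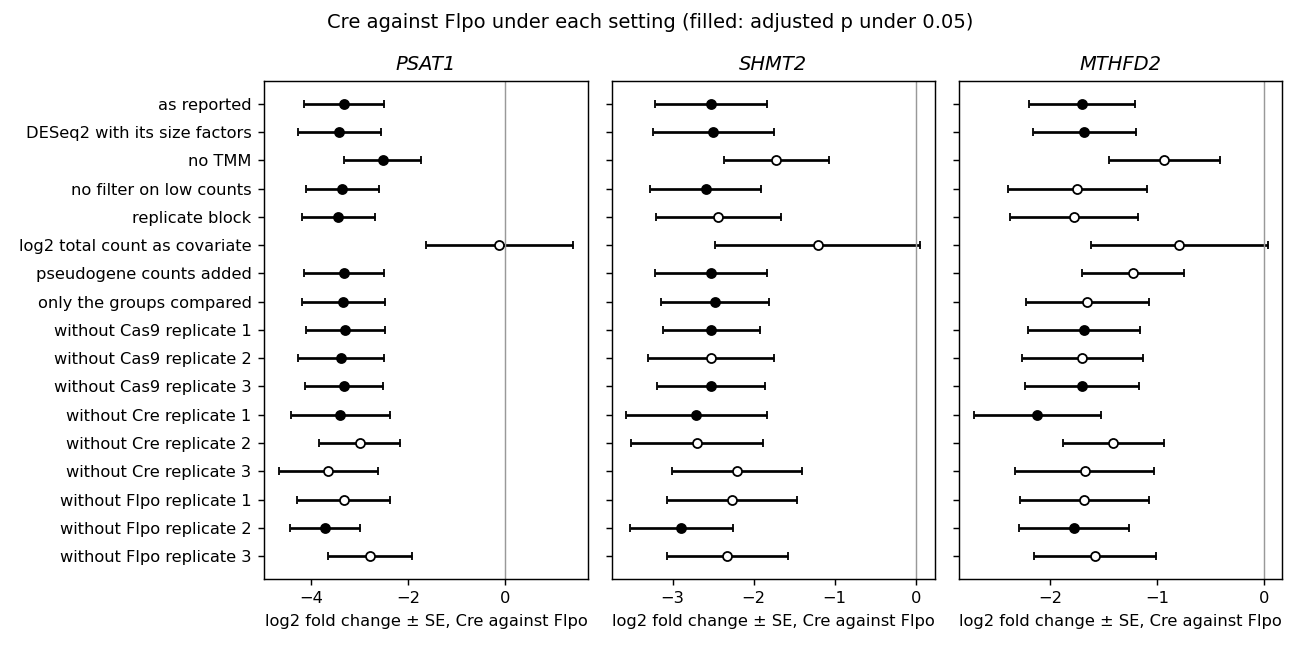
Log2 fold change with its standard error of PSAT1, SHMT2 and MTHFD2 between Cre and Flpo, as reported (top) and under each other setting, including each library left out in turn; filled points have an adjusted p under 0.05. All values are below 0, and in the fit with library totals as covariate PSAT1 lies at −0.11 with a standard error of 1.52.

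The level of PSAT1 followed the library totals. Across the 9 libraries its log2 CPM had a Pearson correlation of 0.95 with log2 total count, that of MTHFD2 0.92, that of SHMT2 0.77 and that of PHGDH 0.73. For PSPH, MTHFD1 and ALDH1L2 it was 0.06, 0.01 and −0.10, and for SHMT1 −0.70. The 9 points share their groups with depth, so these values are descriptions. In a fit that held log2 library totals as covariate, the difference between Cre and Flpo was −0.11 (SE 1.52) for PSAT1, −1.21 (SE 1.27) for SHMT2 and −0.79 (SE 0.83) for MTHFD2. There 0 of 9 enzymes were past the threshold and 0 had an unadjusted edgeR p under 0.05, beside 0 and 731 of 11905 genes. The part of depth in these differences cannot be told apart from that of genotype. Cre replicate 2, which had the high fibroblast genes, can be left out: without it the PSAT1 difference was −2.99 (SE 0.84), and SHMT2 was at −2.70 (SE 0.81) and MTHFD2 at −1.41 (SE 0.48).

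Ratios of the counts of a pair of enzymes within a library do not depend on scaling, and they set mitochondrial against cytosolic forms. MTHFD2 per MTHFD1 was 0.680, 0.717 and 0.543 in Flpo replicates 1, 2 and 3. It was 0.264, 0.382 and 0.349 in the Cas9 replicates and 0.354, 0.0973 and 0.163 in the Cre replicates. Every Flpo library lay above every other library. The 95% Wilson intervals, which cover counting error only, began at 0.493 for the lowest Flpo library and ended at 0.505 for Cas9 replicate 2, the highest of the others. The ratio of Cre replicate 2 rests on 3.24 MTHFD2 counts, with an interval from 0.0296 to 0.279.

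SHMT2 per SHMT1 spread far more within the Cas9 and Flpo groups. It was 5.74, 1.43 and 4.0005 in the Flpo replicates, 0.274, 2.21 and 4.91 in the Cas9 replicates and 0.699, 0.390 and 0.159 in the Cre replicates. The Cre libraries lay below every Flpo library, and the Cas9 libraries reached across both. SHMT1 thus had more counts than SHMT2 in all Cre libraries and in Cas9 replicate 1, and fewer in the other 5 libraries.

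Within the serine branch, PSAT1 per PSPH was 0.448, 0.133 and 0.861 in the Flpo replicates and 0.0376, 0.0528 and 0.138 in the Cas9 replicates. Flpo replicate 2 lay below Cas9 replicate 3, so on this measure the groups overlapped, unlike the scaled levels. In Cre replicates 1 and 3 it was 0.0646 and 0.0628, and the 0 counts of Cre replicate 2 allow up to 0.104. PHGDH per PSPH was 0.742, 2.06 and 1.62 for Cas9, 1.38, 0.215 and 0.291 for Cre and 0.955, 0.595 and 1.05 for Flpo. MTHFD1L per MTHFD1 overlapped across all groups, from 0.0650 to 0.244.

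**Figure D4:**
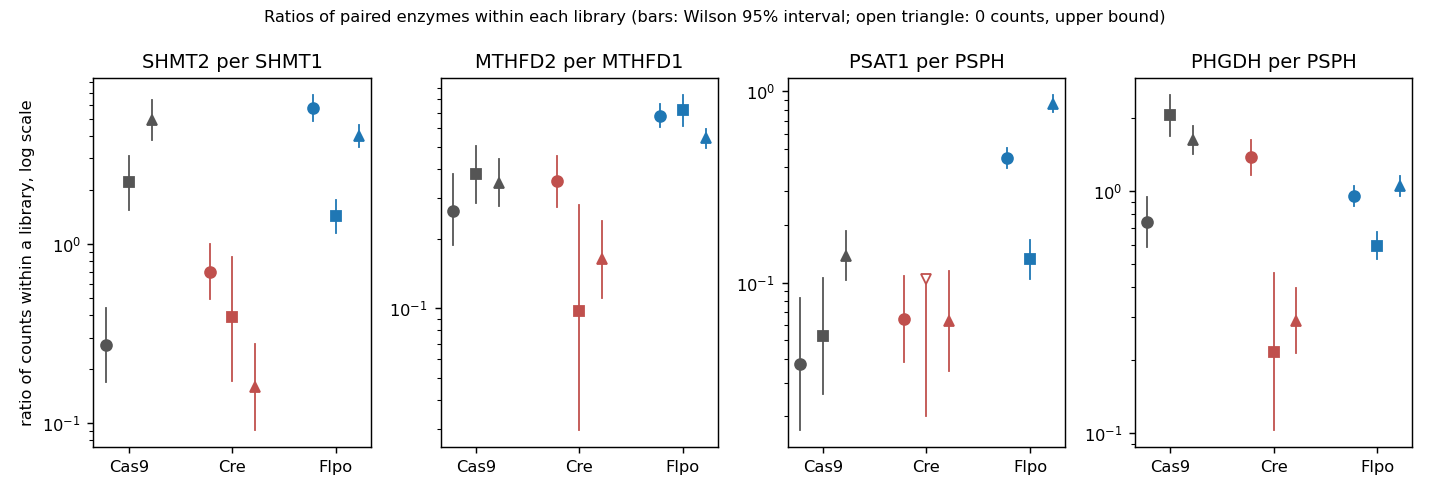
Ratio of the estimated counts of paired enzymes within each library, on log axes, by group; circles, squares and triangles are replicates 1, 2 and 3 and bars are Wilson 95% intervals for counting error. For MTHFD2 per MTHFD1 the Flpo libraries, at 0.543 to 0.717, lie above all others, whose highest is 0.382; for SHMT2 per SHMT1 the Cre libraries, at 0.159 to 0.699, lie below the Flpo libraries, and the open triangle is the upper bound of a library with 0 PSAT1 counts.

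Levels were compared between enzymes as CPM per kilobase of annotated exon. PSPH was the highest in every group, at 38.7 ± 8.48 in Cas9, 48.5 ± 6.89 in Cre and 53.2 ± 5.59 in Flpo (SD, n = 3 each). In the Cas9 group PHGDH followed at 16.0 ± 4.65 CPM per kilobase and then SHMT2, MTHFD1, MTHFD2, SHMT1, PSAT1, MTHFD1L and ALDH1L2, the last at 2.06 ± 0.136. In the Cre group MTHFD1 followed PSPH, at 13.9 ± 2.77 CPM per kilobase, and PSAT1 was the lowest at 2.55 ± 2.26. In the Flpo group PSAT1 followed PSPH, at 30.9 ± 20.9 CPM per kilobase, and SHMT2 came next at 25.6 ± 12.8.

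Most neighbours in this order did not differ beyond their spread. In the Flpo group the libraries of 7 of the 8 neighbouring pairs overlapped, all but PHGDH over SHMT1. In the Cre group 6 of 8 overlapped, all but PSPH over MTHFD1 and MTHFD1 over SHMT1, and in the Cas9 group 5 of 8, all but PSPH over PHGDH, MTHFD1 over MTHFD2 and MTHFD1L over ALDH1L2. The order depended on the length used. With the longest transcript in place of all exons, PHGDH was second in every group, at 46.3 ± 13.5, 24.1 ± 21.7 and 39.6 ± 9.95 CPM per kilobase in Cas9, Cre and Flpo, and PSAT1 ranked 8, 9 and 4.

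The enzymes did not vary as a block. Over the 9 libraries the log2 CPM of PSAT1 had a Pearson correlation of 0.92 with MTHFD2, 0.67 with SHMT2 and 0.58 with PHGDH, but 0.23 with PSPH and 0.09 with ALDH1L2. PHGDH and SHMT1 correlated at −0.86, and MTHFD1 and ALDH1L2 at 0.77. Among 7685 genes with a mean of at least 50 counts, those most like PSAT1 were PTK7, CRKL, SLX4IP, MARS and LRRC37A16P, with correlations from 0.98 to 1.00. Those most like PHGDH were RAI14, RPL10A, EIF3L, IGBP1 and CALM3, from 0.99 to 1.00. The same 9 libraries, groups and depths underlie all of these values.

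The upstream sequence of PSAT1 is shown because PSAT1 had the largest fold change of the 9 between Cre and Flpo, and a short stretch of MTHFD1L because it alone held the ATF4 motif searched for. Upstream windows were found for 6 of the 9 enzymes in the RefSeq table (GRCh38.p14), all but PSPH, SHMT2 and ALDH1L2. The 250 bases before the PSAT1 start, chr9:78296875-78297124, plus strand, are given 5′ to 3′ with each CCAAT in capitals.
PSAT1: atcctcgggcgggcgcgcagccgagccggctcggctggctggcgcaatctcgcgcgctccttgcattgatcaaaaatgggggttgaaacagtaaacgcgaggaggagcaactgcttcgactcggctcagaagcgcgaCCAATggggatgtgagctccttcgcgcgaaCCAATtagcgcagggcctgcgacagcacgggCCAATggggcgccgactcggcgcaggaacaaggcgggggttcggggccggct
The stretch of MTHFD1L is chr6:150866346-150866375, plus strand, with the match to TGATGNAA in capitals.
MTHFD1L: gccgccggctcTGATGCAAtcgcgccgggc

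TGATGNAA, the core of the element bound by ATF4 with a C/EBP partner, was searched on both strands and lay in 3.14% of all 35116 upstream windows. Among the enzymes with a window it was found in MTHFD1L, at bases −129 to −122 from one of its starts and −90 to −83 from another. Of all genes 3.89% had it in a window. Annotated MTHFD1L exons covered 55 bases of each of these MTHFD1L windows. A further MTHFD1L start, at base 150866333, lies before the match, which is thus not upstream of that start. CCAAT, the box bound by NF-Y, was searched on both strands and lay in 32.0% of all windows. It was found in a window of each of the 6 enzymes. The PSAT1 window held it 3 times, with first bases at −113, −83 and −52 from the start, and overlapped no annotated exon. Annotated exons covered the whole MTHFD1 window and most of the MTHFD2 and PHGDH windows. The MTHFD1 and PHGDH windows lie inside these genes as annotated, so their CCAAT matches are not upstream of the annotated gene. The motifs do not overlap each other in these windows. A match is a run of letters and not a site.

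The other genes of the pathway were taken from 7 lists with 54 genes, of which 45 were tested. Between Cre and Flpo 15 of 45 passed an adjusted p of 0.05 in edgeR, 1 higher and 14 lower in Cre, where 20.5% of all genes passed. The median difference of the 45 was −1.35, against −0.34 for all genes. Like the 9 enzymes, the lists were chosen with earlier results known. Without Cre replicate 2, Cre replicate 3 or Flpo replicate 1 none of the tested list genes passed, and 0 of all genes did. Without Flpo replicate 3 only 3 of 46 passed, beside 3.28% of all genes, and without Cas9 replicate 2 only 8 of 49, beside 10%. Without Flpo replicate 2 the number was 23 of 46, where 44.1% of all genes passed. It was 10 of 45 without TMM, where 24.2% of all genes passed, and 0 of 45 with library totals as covariate. In the fit with the covariate 1 of 45 had an unadjusted edgeR p under 0.05, beside 731 of 11905 genes. Between Flpo and Cas9 edgeR passed 0 of 45 and DESeq2 12, beside 8.95% of all genes in DESeq2. An unadjusted edgeR p under 0.05 was found for 17 of 45, beside 2378 of 11905 genes. The median difference was 0.79 against 0.05. Without Flpo replicate 2 edgeR passed 17 of 46, beside 21.3% of all genes. Between Cre and Cas9 edgeR and DESeq2 both passed 0, where 3 of 45 had an unadjusted edgeR p under 0.05, beside 879 of 11905 genes. The median difference was −0.26 against −0.22.

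Genes that spend the carbon unit were the lists with the lowest medians between Cre and Flpo. All 3 tested genes of the methionine cycle passed, lower in Cre. AHCY, which clears S-adenosylhomocysteine, had a log2 difference of −4.66 (SE 0.71, edgeR adjusted p = 0.0167), and MAT2B and MAT2A, subunits of the enzyme that makes S-adenosylmethionine, had −2.81 and −2.07. AHCY was at 177 ± 86.5 CPM in Flpo, 6.97 ± 1.63 in Cre and 36.6 ± 23.2 in Cas9 (SD, n = 3 each). Its 7.47 CPM in Cre replicate 2 lay below 11.2 CPM, the level of 3 counts there, so its Cre spread rests on few counts. Of 7 tested users of carbon units 3 passed, lower in Cre. They were TYMS, the thymidylate synthase, at −4.62 (SE 0.89, edgeR adjusted p = 0.0167), MTR, the methionine synthase, at −2.41, and PFAS, of purine synthesis, at −1.75. TYMS too was at 7.47 CPM in Cre replicate 2, below the level of 3 counts. Without that library 0 of 49 tested list genes passed.

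The lists that supply folate and glycine had medians nearer to that of all genes. Among the genes of folate uptake and interconversion MTHFS, which returns a storage form of folate to the pool, passed at −3.32. Of 4 glycine cleavage genes DLD passed at −2.96, and of 3 mitochondrial serine carriers SFXN3 passed at −2.77. Of 9 tested genes of serine uptake and use, 4 passed. The transporters SLC38A2, SLC1A5 and SLC38A1 were lower in Cre, at −2.75, −2.36 and −1.57, and SDSL, named for its likeness to serine dehydratase, was higher at 1.83. SLC38A1 was named after its values were seen. In Cre replicate 2 MTHFS was at 3.73 CPM, and DLD, SFXN3, SLC1A5 and SLC38A1 were at 7.47 CPM. These values lie below 11.2 CPM, the level of 3 counts in that library.

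ATF4 passed between Cre and Flpo at −3.27 (SE 0.89, edgeR adjusted p = 0.0268). It was the single call among the 8 tested genes of its list, where 20.5% of all genes passed. The median of the 8 was −1.59, against −0.34 for all genes, with 7 below 0 and 1 above. ATF4 was at 259, 158 and 167 CPM in Flpo replicates 1, 2 and 3, at 20.8, 116 and 232 CPM in the Cas9 replicates and at 40.9, 11.2 and 4.29 CPM in the Cre replicates. The 11.2 CPM of Cre replicate 2 is the level of 3 counts there, and without that library ATF4 did not pass. The Cre and Flpo libraries did not overlap, and Cas9 replicate 3 lay within the Flpo range. In Cas9 replicate 3 PSAT1 was at 14.0 CPM, below all Flpo libraries, with ATF4 at 232 CPM, above Flpo replicates 2 and 3. These are mRNA levels of 1 library, and the part of ATF4 in the level of PSAT1 was not tested.

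**Figure D5:**
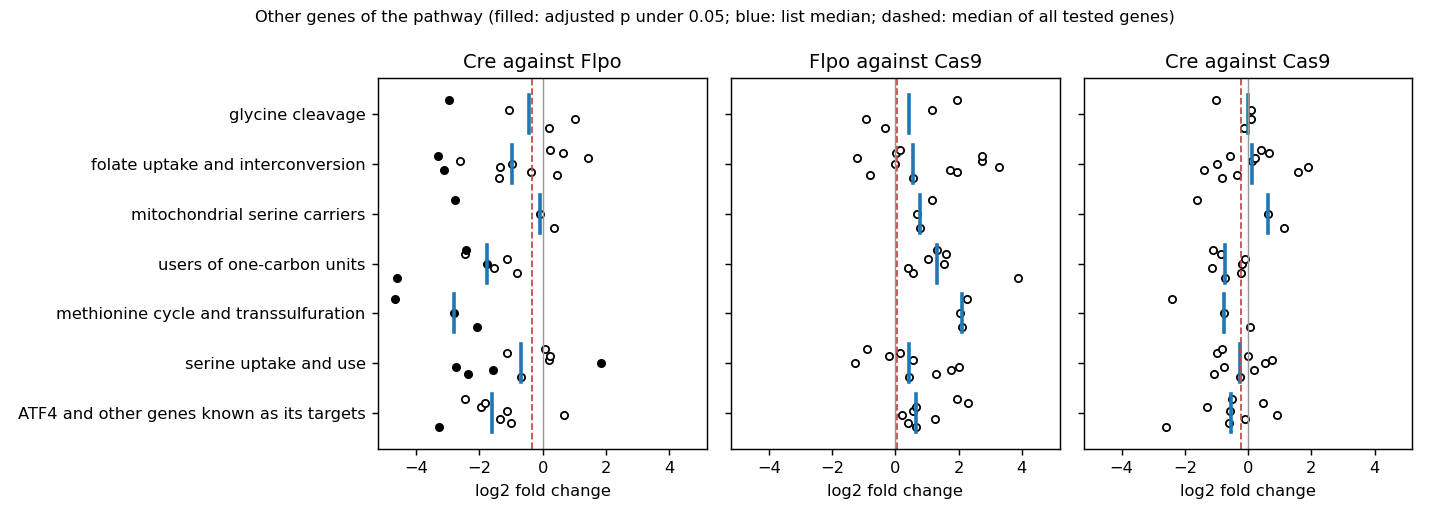
Log2 fold change of each tested gene in 7 lists around the pathway for the 3 comparisons; filled points have an adjusted p under 0.05 in edgeR, blue bars are list medians and the dashed line is the median of all tested genes. All 15 filled points lie in Cre against Flpo, 14 of them below 0.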

How the data were processed

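TRIzol extraction and a TruSeq RNA kit preceded sequencing, per the labels' protocols. What the authors deposited were estimated counts per gene symbol for 9 libraries, not normalized. Salmon 0.14.1 and hg38 are named, with no role, in the submitters' processing notes. The annotation, filters and use of strand are not given in the sources used here. Between 48.7% and 60.8% of the values above 0 in a library were not whole, and the counts were rounded for the tests.

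The quasi-likelihood test of edgeR 4.0.16, run in R 4.3.3, took all 9 libraries together, with TMM scaling, no covariates and the default filter (minimum count 10, minimum total 15). Adjusted p-values are Benjamini-Hochberg values over 11905 genes, with a threshold of 0.05. Each standard error is the absolute log2 fold change over the root of its F statistic. The biological coefficient of variation was 0.556. CPM used TMM totals and the counts as deposited, and a count of 0 allows 3 counts, which was 11.2 CPM in the smallest library and 0.479 CPM in the library with the largest scaled total. Intervals and limits cover counting error only. The code was tested on simulated data with a smaller spread than these libraries, which checks the code and not its error rates here. Alternatives used DESeq2 1.42.0, no TMM, no filter, only the groups compared, the replicate number as a block, log2 total count as a covariate, added pseudogene counts, exon or transcript length, and each library left out.

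Positions and transcripts are from GENCODE release 29 (GRCh38), which held 35378 of 35876 symbols. The 9 genes and all lists were chosen with earlier results of these data known. Named beyond the 9 were ATF4, list genes past the threshold (at most 3 per list, by smallest adjusted p), and the 5 genes correlating best with PSAT1 and with PHGDH (log2 CPM, prior count 2). A list gene that met this rule is not reported here.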

Additional observations from a re-analysis of the deposited data

How the results depend on the processing

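The counts of calls moved with the processing. Of the 9 enzymes 3 were past the threshold between Cre and Flpo, against 2 without the filter, with pseudogene counts added or with only the groups compared, where MTHFD2 missed it. It was 1 without TMM, 1 with the replicate block and 0 with log2 library totals as covariate. Over the fits without one library this count ran from 0 to 4. For all genes, 2440 became 3976 with DESeq2, 1568 with the replicate block and 0 with the covariate (731 at an unadjusted p under 0.05), and from 0 to 5559 without one library. Between Flpo and Cas9, 0 of 9 enzymes became 2 with DESeq2 and 1 without the filter, and from 0 to 2 without one library. For all genes 27 became 1065 with DESeq2, 12 without TMM, 1169 without the filter, 6 with the replicate block, 0 with the covariate and 0 with only the groups compared, and from 0 to 2685 without one library. Between Cre and Cas9, 0 genes became 4 with DESeq2 and 51 without the filter, and stayed at 0 in the fits without one library, as did the count of enzymes. The cause was not tested, save that fits without a library or a group hold fewer samples.

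The signs of small differences turned. Without TMM, Cre against Flpo became 0.10 for PHGDH, 0.66 for PSPH, 0.64 for ALDH1L2 and 0.71 for MTHFD1, Flpo against Cas9 became −0.11 for PSPH and −0.091 for MTHFD1, and Cre against Cas9 became 0.034 for PSAT1. With the covariate, Cre against Flpo became 1.24 for PHGDH and −0.81 for SHMT1, Flpo against Cas9 became 1.02 for SHMT1, and Cre against Cas9 became 0.90 for PSAT1. MTHFD1L in Cre against Cas9 became −0.034 without the filter, −0.14 with the replicate block and −0.019 with only the groups compared. Without one library the differences that turned ran, in Cre against Flpo, from −0.57 to 0.40 for MTHFD1L, −0.43 to 0.18 for ALDH1L2 and −0.29 to 0.18 for MTHFD1. In Flpo against Cas9 they ran from −0.38 to 0.60 for SHMT1 and −0.42 to 0.061 for MTHFD1L, and in Cre against Cas9 from −0.65 to 0.48 for PSAT1, −0.71 to 0.00061 for MTHFD2 and −0.67 to 0.27 for MTHFD1L. None of these had an adjusted p under 0.05 in either fit.

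Groups share only replicate numbers from the titles. Deviations of same-numbered libraries correlated at 0.37, 0.19 and −0.21 between Cre and Flpo, and 3 of 6 libraries correlated best with their own number there, 1 of 6 between Flpo and Cas9 and 0 of 6 between Cre and Cas9. With the replicate block SHMT2 and MTHFD2 missed the threshold between Cre and Flpo, at −2.44 and −1.78, and PSAT1 passed it, as did 10 of 45 list genes in place of 15. Depth limits PSAT1 in Cre replicate 2, where 0 counts allow up to 11.2 CPM, and also MTHFD2 and MTHFD1L, with 3.24 and 3.01 counts there.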
